A study of Mus musculus with 12 samples.

Results

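The genes described here build, move and anchor the actin cytoskeleton of macrophages at the podosome and the phagocytic cup. They were 37 mouse genes listed as actin regulators that act downstream of the kinase Syk and of integrins, and were looked up by symbol in a table of read counts for bone marrow derived macrophages (BMDMs). A gene was kept when it had at least 10 counts in at least 2 libraries, and 37 of the 37 were kept, out of 16281 genes tested and 54232 gene IDs in the table. The rule used no other measured value, but the genes were chosen with earlier results of these data known. The list also held 2 intermediate filament genes, Vim and Nes.

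BMDMs were grown from the marrow of C57BL/6 wild type mice aged 6 to 8 weeks and had been in culture for 5 days. They were then incubated for 24 h in 6 ways, with 2 libraries of poly(A) RNA each: no tumor-conditioned medium (TCM) and no inhibitor (NS, libraries SJ1 and SJ2), TCM of NB9464 cells (SJ3 and SJ4), TCM of NBT3L cells (SJ5 and SJ6), R788 at 500 nM (SJ7 and SJ8), NB9464 TCM + R788 (SJ9 and SJ10) and NBT3L TCM + R788 (SJ11 and SJ12). NB9464 is a mouse neuroblastoma line with amplified MYCN, NBT3L is a line without the amplification, and R788 (fostamatinib) is the prodrug of an inhibitor of Syk. The study asked how factors released by neuroblastoma cells program macrophages and what inhibition of Syk changes. Its methods describe TCM followed by R788 for 24 h, so any time in TCM before R788 is unclear. All 6 groups were wild type for Syk, so the action of R788 here is that of a drug and not of a gene deletion. Cells of the NB9464 line conditioned serum-free DMEM for 48 h, whereas BMDMs were grown in RPMI with serum and M-CSF, so TCM and a change of base medium and serum cannot be told apart. The preparation of NBT3L TCM, the vehicle of R788 and whether the 2 libraries of a group came from separate mice or cultures are not given in the sources used here. All p-values therefore measure only the spread between these libraries, which may be technical.

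Podosomes are dot-like adhesions of macrophages, each with a core of branched actin and a ring of integrins and linker proteins such as vinculin, talin and paxillin. A phagocytic cup is the actin-rich fold of membrane that closes around a particle. In both, Rac and Cdc42 activate WASP and related proteins, these switch on the Arp2/3 complex, which branches filaments, and myosins, bundlers and severing proteins shape the network. Syk acts upstream: Fc receptors and integrins recruit it, and it phosphorylates adaptors and exchange factors for Rac and Cdc42. These steps act on proteins, while only transcript levels were measured here.

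Many cytoskeletal genes are transcribed by serum response factor, which binds the CArG box (CC, 6 bases of A or T, GG). Promoters were taken from RefSeq on GRCm38.p6 for 31 of the 37 genes, and Actb, Cttn, Lsp1, Pxn, Rac1 and Sorbs3 were not matched. A CArG box on either strand lay between 250 bases before and 50 after the start of 3 matched genes (9.68%), the cytoplasmic actin gene Actg1, the vinculin gene Vcl and the myosin gene Myo1e, and of 1.81% of the 27025 genes with a promoter in the table. The 250 bases before these 3 starts are shown because the genes sit in 3 different layers of the structure, the filament, the ring and the cup, and because their transcripts moved differently. They are printed 5′ to 3′ on the strand of the gene with the CArG box in capitals.
Actg1, chr11:120348496-120348745, minus strand: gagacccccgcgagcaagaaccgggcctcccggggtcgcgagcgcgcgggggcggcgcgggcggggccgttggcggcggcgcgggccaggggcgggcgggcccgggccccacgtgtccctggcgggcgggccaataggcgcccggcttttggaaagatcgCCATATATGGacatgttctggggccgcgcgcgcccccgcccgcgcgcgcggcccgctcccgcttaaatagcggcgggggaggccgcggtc
Vcl, chr14:20929148-20929397, plus strand: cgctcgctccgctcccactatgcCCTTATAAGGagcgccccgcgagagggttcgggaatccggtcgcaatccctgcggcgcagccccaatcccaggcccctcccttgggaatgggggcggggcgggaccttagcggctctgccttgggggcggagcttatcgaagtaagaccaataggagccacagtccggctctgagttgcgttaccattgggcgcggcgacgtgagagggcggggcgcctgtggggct
Myo1e, chr9:70207100-70207349, plus strand: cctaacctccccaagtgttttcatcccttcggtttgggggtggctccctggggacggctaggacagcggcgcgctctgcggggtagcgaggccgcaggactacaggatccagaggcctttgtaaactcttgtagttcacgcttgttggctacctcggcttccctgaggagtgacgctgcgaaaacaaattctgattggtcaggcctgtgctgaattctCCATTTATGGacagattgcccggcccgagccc
The first base of the box lay 90 bases before the start in Actg1, 227 in Vcl and 32 in Myo1e. The core GAGGAA bound by PU.1, a factor of the macrophage lineage, searched on both strands, was in the promoters of 11 of the 31 genes (35.5%) and of 31.3% of the 27025 genes. A match is a description of letters and was not tested as a binding site.

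Counts summed to between 44977847 and 56449685 per library. Among low counts 65.2% to 67.9% were even, so 1 fragment may have been counted as 2 reads, and counts and totals may exceed fragments to that extent. Library SJ8 of the R788 group was the deepest, and had counts for 16149 genes against 17275 to 18343 in the other 11, and the R788 pair had the largest SD of the log2 difference between replicates over 10715 genes (0.371, against 0.230 to 0.261 in the other pairs). Results that rest on SJ8 are given with and without it. The macrophage label was met: 8 of 8 macrophage markers had counts in 12 libraries, and their summed normalized count was between 1594120 and 2657240. Of 8 neuroblastoma markers, Th and Chga were at 0 in 12 libraries, and the summed level was 0 in NS, 0 and 1.82 in R788 and between 23.9 and 77.8 with TCM. Their part in the results with TCM was not tested. Fibroblast or stromal markers summed to between 1916 and 2275 in NS and between 2512 and 4904 in the other groups. In bulk RNA, fewer cells of a type and less RNA per cell cannot be told apart.

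The 37 transcripts were abundant. Their median mean normalized count was 29550, against 625.2 for all genes tested, and 33 of the 37 averaged at least 1000. Together they took 3.86% of all counts in NS, 3.94% in NB9464 TCM, 4.36% in NBT3L TCM, 3.23% in R788, 3.71% in NB9464 TCM + R788 and 4.21% in NBT3L TCM + R788 (means of 2 libraries). Per kb of exon, the highest mean levels over 12 libraries were those of Tmsb4x, thymosin beta 4, which holds actin monomers (264819 normalized counts per kb), and Actb, beta-actin (147245). The monomer binder Pfn1 (43014) and the severing protein Cfl1 (46970) came next, at levels close to each other. The lowest were Fscn1 (88.0), Nes (53.0), Sorbs3 (37.8) and Cttn (34.1), so cortactin itself was low while Hcls1, its homolog of blood cells, averaged 17211 per kb. Syk mRNA, which is no measure of kinase inhibition, was 15428 and 14546 normalized counts in NS, 34238 and 33632 in NB9464 TCM, 37102 and 37581 in NBT3L TCM, 18344 and 17601 in R788, 41094 and 43780 in NB9464 TCM + R788 and 44194 and 43852 in NBT3L TCM + R788. It rose with each TCM (log2 fold changes 1.18 ± 0.05 and 1.32 ± 0.05) and by less with R788 in each medium (0.26, 0.32 and 0.24).

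**Figure D1:**
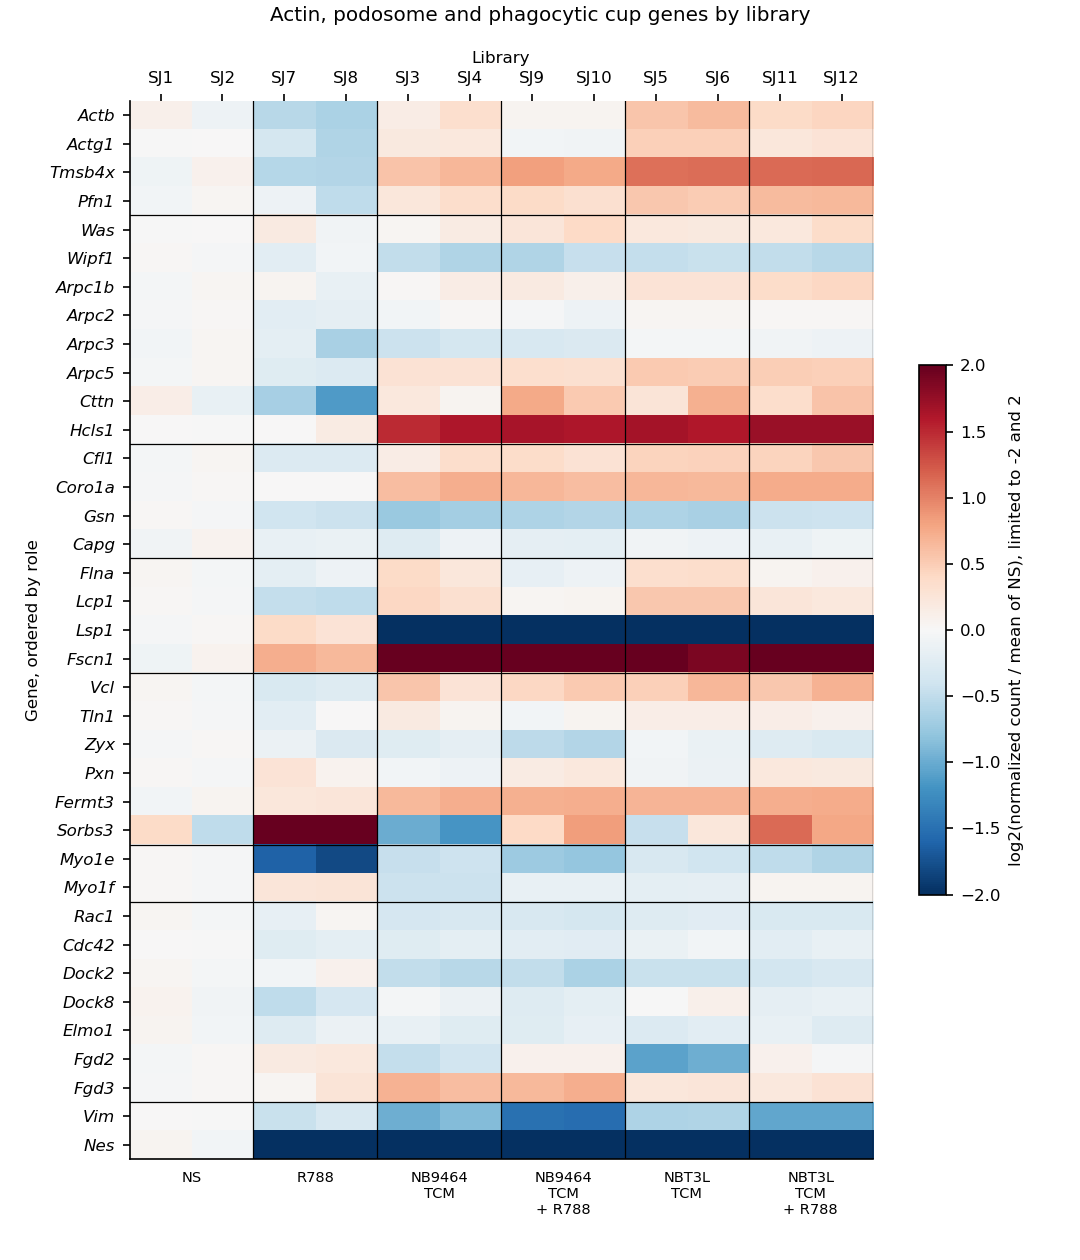
Level of the 37 genes (rows, ordered by role, lines between roles) in the 12 libraries (columns, 2 per group), as log2 of the normalized count over the mean of the NS libraries, with colors limited to -2 and 2. Hcls1 and Fscn1 are higher and Lsp1, Vim and Nes lower in the 8 libraries with TCM than in NS. In the 2 libraries with R788 alone Myo1e is lowest and Sorbs3 highest, and Nes is also far below NS.

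Incubation with TCM changed the mix of actin genes in both directions. In NB9464 TCM against NS, 13 of the 37 genes rose and 16 fell at an adjusted p under 0.05 (DESeq2, Wald test), where 34.1% of all genes tested (17.2% higher, 16.9% lower) and 53.0% of the 6989 genes with a mean of at least 1000 normalized counts were called. In NBT3L TCM against NS, 15 rose and 11 fell, where 35.3% of all genes (18.0% higher, 17.3% lower) and 55.3% of the abundant genes were called. Changes of at least 2-fold were called for 5 and 6 genes, where 11.4% and 12% of all genes tested had one. The median log2 fold change of the 37 was -0.02 and 0.05, beside medians of 0.02 and 0.00 over all genes tested. Scaling by total counts, chosen after seeing the data, moved the median of all genes by -0.13 and -0.23 and gave 10 higher and 19 lower in NB9464 TCM and 12 higher and 18 lower in NBT3L TCM. The largest changes below are many times that shift. Both comparisons use the same NS libraries.

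Among the filament building blocks, Tmsb4x (chrX:167207093-167209315 on GRCm38) had 219801 and 249096 normalized counts in NS, 348434 and 370140 with NB9464 TCM and 501419 and 506835 with NBT3L TCM. The groups did not overlap, and the log2 fold changes against NS were 0.62 ± 0.06, adjusted p = 5.22e-26 and 1.10 ± 0.06, adjusted p = 3.31e-82. Actb (chr5:142903115-142906754) had 377289 and 327021 in NS, 391040 and 443942 with NB9464 TCM and 517104 and 543669 with NBT3L TCM. The 2 NS libraries were themselves apart, and the rise in NBT3L TCM (0.59 ± 0.07, adjusted p = 8.60e-17) was larger than that in NB9464 TCM (0.25 ± 0.07, adjusted p = 0.00148). The latter was lost without SJ2 (0.14, adjusted p = 0.122), without SJ4 (0.15, adjusted p = 0.118) and with scaling by total counts. Actg1, the other cytoplasmic actin, rose in both (0.21 ± 0.07 and 0.48 ± 0.07), the first lost without SJ1 (adjusted p = 0.0520) and with scaling by total counts. Profilin, Pfn1, rose in NBT3L TCM (0.52 ± 0.13) and was 0.29 ± 0.13 in NB9464 TCM, adjusted p = 0.0631.

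The nucleation genes split between a large change in 1 gene and small ones in the rest. Hcls1 (chr16:36934983-36963212), which binds Arp2/3 and stabilizes branches in hematopoietic cells, had 18172 and 17795 normalized counts in NS against 50353 and 55088 with NB9464 TCM and 57117 and 54572 with NBT3L TCM. Every TCM library was far above every NS library, a 2.93-fold and 3.11-fold rise (1.55 ± 0.06, adjusted p = 4.18e-147; 1.63 ± 0.06, adjusted p = 4.03e-163). Arpc5, an Arp2/3 subunit, rose in both (0.28 ± 0.04 and 0.51 ± 0.04), Arpc1b in NBT3L TCM (0.27 ± 0.06, lost with scaling by total counts), and Arpc3 fell in NB9464 TCM (-0.39 ± 0.10; lost at -0.35 without SJ3 and -0.42 without SJ4). Wipf1, which holds WASP in a stable complex, fell in both (-0.54 ± 0.07 and -0.45 ± 0.07). For Was itself the values were 0.11 ± 0.09 and 0.20 ± 0.09, adjusted p = 0.415 and 0.0691, and Cttn and Arpc2 did not pass in either. Under scaling by total counts Arpc2 was called lower in both TCMs, which turned its sign in NBT3L TCM. Pdap1 on the other strand covers 18.2% of the exon bases of Arpc1b.

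Severing and capping genes also went both ways. Coro1a, coronin, which works with cofilin in filament turnover, rose from 34108 and 35347 in NS to 53302 and 57354 with NB9464 TCM and 55283 and 54629 with NBT3L TCM (0.67 ± 0.05 and 0.66 ± 0.05). Gelsolin, Gsn, a severing protein needed for podosomes of osteoclasts, fell from 40684 and 39730 in NS to 23914 and 25002 with NB9464 TCM and 26204 and 25696 with NBT3L TCM (-0.72 ± 0.05 and -0.63 ± 0.05). Cofilin, Cfl1, rose in both (0.25 ± 0.06 and 0.46 ± 0.06), the first lost at 0.14 without SJ4 and with scaling by total counts (0.12). The capping protein Capg fell in NB9464 TCM (-0.18 ± 0.06; lost at -0.11 without SJ3, -0.12 without SJ2 and with upper-quartile scaling) and was -0.09 ± 0.06 in NBT3L TCM, adjusted p = 0.268.

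The bundlers moved further. Lsp1 (chr7:142460809-142494867), an actin-bundling protein of leukocytes found at podosomes and phagocytic cups, had 16276 and 16830 normalized counts in NS, 3962 and 4051 with NB9464 TCM and 1827 and 1987 with NBT3L TCM. The 3 groups were far apart, with log2 fold changes of -2.05 ± 0.07 (adjusted p = 2.09e-179) and -3.12 ± 0.07 (adjusted p too small for the software to hold), and Lsp1 stayed called under the 20 alternatives in each. Fscn1 (chr5:142960343-142973185), fascin, which packs filaments into tight bundles in filopodia, had 53.5 and 59.7 in NS, 257 and 232 with NB9464 TCM and 262 and 209.9 with NBT3L TCM. It was a rare transcript in each group and rose 4.32-fold and 4.16-fold (2.11 ± 0.27, adjusted p = 2.65e-14; 2.06 ± 0.27, adjusted p = 1.93e-13). Fascin is also a mark of mature dendritic cells. The 7 markers of those cells, listed apart from the 37 genes, summed to between 676 and 792 in NS and between 430 and 564 in the 2 TCM groups, with Ccl17 at 0 in 12 libraries. Most of the NS sum was Cd83, which was lower with TCM (69.7 to 172 against 495 and 554 in NS). Batf3 was higher with TCM (194 to 323 against 120.2 and 161) and was the largest of these markers in those 2 groups. The part of the markers in the rise of Fscn1 was not tested. Lcp1, plastin of leukocytes (0.37 ± 0.04 and 0.54 ± 0.04), and filamin Flna (0.31 ± 0.06 and 0.34 ± 0.06, the second lost with scaling by total counts) rose moderately.

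Of the ring and integrin linkage genes, Fermt3, kindlin-3, which activates integrins with talin, rose in both TCMs (0.69 ± 0.05 and 0.68 ± 0.05), as did Vcl (0.43 ± 0.11 and 0.57 ± 0.11; in NB9464 TCM lost at 0.28 without SJ3). Tln1 and Pxn did not pass in either, with values between -0.09 and 0.13. Zyx fell in NB9464 TCM (-0.21 ± 0.07; lost at -0.18 without SJ3 and -0.19 without SJ2). A share of 25.5% of the exon bases of Vcl overlaps Ap3m1 on the other strand, and whether counting used the strand is not given in the sources used here. Sorbs3 (chr14:70180468-70211989), vinexin, a partner of vinculin, had 84.5 and 45.5 in NS, 32.5 and 28.8 with NB9464 TCM and 47.0 and 75.7 with NBT3L TCM. The NS and NBT3L TCM libraries overlapped, and the call in NB9464 TCM (-1.09 ± 0.43, adjusted p = 0.0352) was lost in 6 of 20 alternatives, among them without SJ1 (-0.57, adjusted p = 0.472).

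Both long-tailed class I myosins of the cup fell. Myo1e was 8190 and 7982 in NS, 5888 and 6039 with NB9464 TCM and 6457 and 6126 with NBT3L TCM (-0.44 ± 0.08 and -0.36 ± 0.08), and Myo1f fell by 0.43 and 0.19 on the log2 scale. Among the GTPases and their exchange factors, Rac1 (-0.32 ± 0.06 and -0.25 ± 0.06), the Rac activator Dock2 (-0.52 ± 0.07 and -0.44 ± 0.07) and its binding partner Elmo1 (-0.20 ± 0.07 and -0.24 ± 0.08) fell in both. The Elmo1 calls were lost at -0.15 without SJ1 and -0.15 without SJ4 in NB9464 TCM and at -0.19 without SJ1 and -0.22 without SJ5 in NBT3L TCM. Daglb on the other strand covers 51.4% of the exon bases of Rac1. The 2 exchange factors of the FGD family, whose kin activate Cdc42, parted: Fgd3 rose (0.66 ± 0.08 and 0.23 ± 0.08; in NBT3L TCM lost without SJ1, SJ5 or SJ6 at 0.22 to 0.24, and 0.00 with scaling by total counts), and Fgd2 (chr17:29360914-29379661) fell from 2839 and 2966 in NS to 2095 and 2229 with NB9464 TCM and 1376 and 1481 with NBT3L TCM. The Fgd2 groups did not overlap (-0.43 ± 0.09, adjusted p = 7.48e-06; -1.02 ± 0.09, adjusted p = 1.02e-28).

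Both intermediate filament genes fell. Vim, vimentin, the main intermediate filament protein of macrophages, was 193393 and 191976 in NS, 98140 and 105259 with NB9464 TCM and 125932 and 126629 with NBT3L TCM (-0.92 ± 0.05, adjusted p = 3.04e-72; -0.61 ± 0.05, adjusted p = 5.20e-32). Nes (chr3:87971078-87980451), nestin, which forms filaments with vimentin, was 1577 and 1470 in NS and fell to 234 and 193 with NB9464 TCM and to 183 and 104 with NBT3L TCM (-2.83 ± 0.29, adjusted p = 2.54e-21; -3.41 ± 0.30, adjusted p = 2.47e-29). No other group had Nes above 234 normalized counts. Nestin also marks progenitor and endothelial cells, and the 5 endothelial markers summed to between 1439 and 1539 in NS and between 693 and 1010 in the other 5 groups, with Emcn at 0 in NS. Most of the NS sum was Kdr (1348 and 1405), whereas Pecam1 was 41.3 and 37.9 in NS and between 419 and 872 in the 8 libraries with TCM. Their part in the fall of Nes was not tested.

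**Figure D2:**
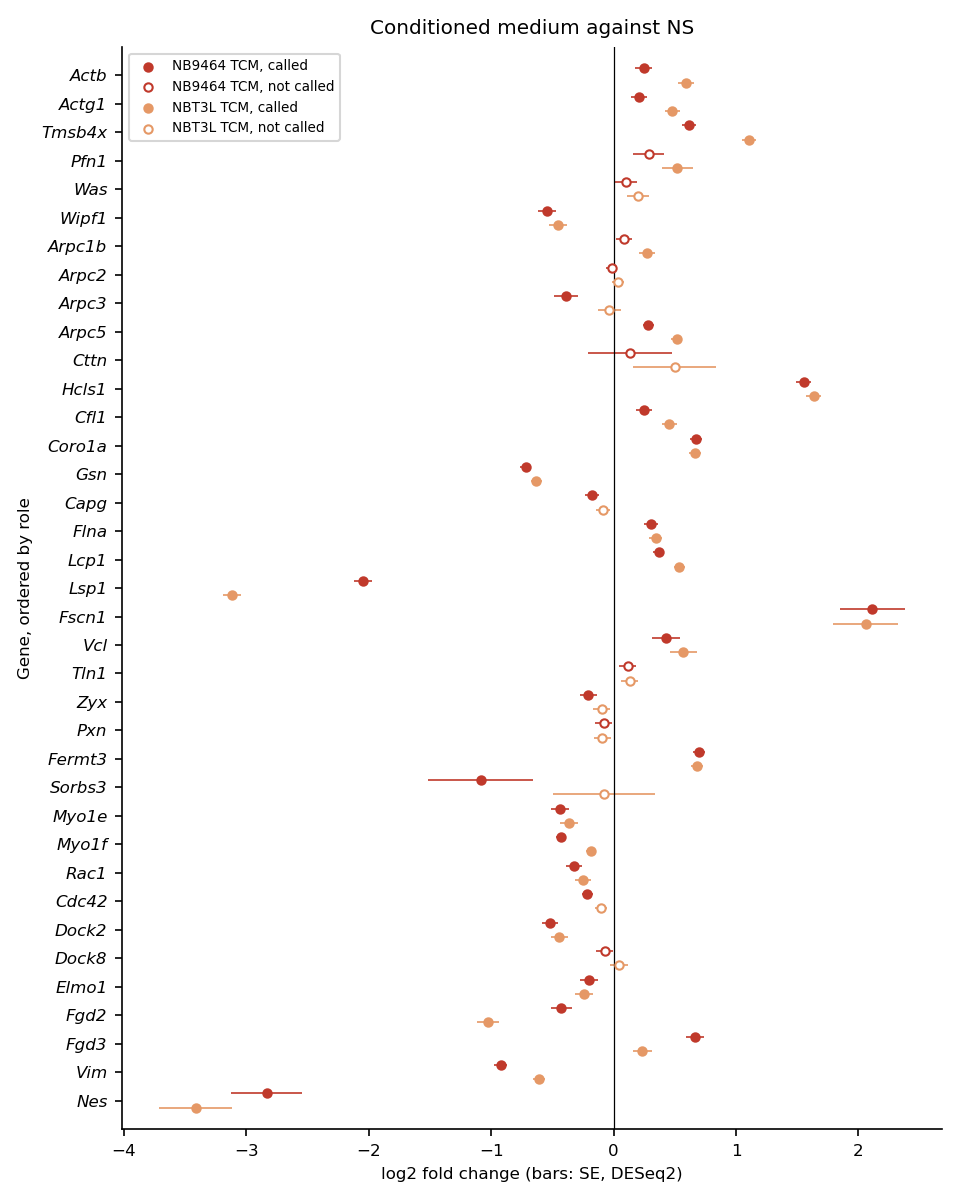
Log2 fold change of each of the 37 genes (vertical axis, ordered by role) in NB9464 TCM (red) and NBT3L TCM (orange) against NS, with bars of 1 SE from DESeq2 and filled points where the adjusted p was under 0.05. The points of the 2 media lie near each other for most genes and are farthest apart at Lsp1 (-2.05 and -3.12) and Sorbs3 (-1.09 and -0.08).

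A direct comparison of NB9464 TCM with NBT3L TCM, which asks whether medium of the MYCN-amplified line differs from the other, called 13 of the 37 genes, 3 higher and 10 lower in NB9464 TCM, against 9.40% of all genes (3.69% higher, 5.72% lower) and 17.4% of abundant genes. The 3 higher were Lsp1 (1.07 ± 0.08, adjusted p = 2.25e-43), Fgd2 (0.60 ± 0.09, adjusted p = 2.25e-09) and Fgd3 (0.43 ± 0.08). The 10 lower held 3 of the 4 filament building blocks, Tmsb4x (-0.49 ± 0.06), Actb (-0.35 ± 0.07) and Actg1 (-0.27 ± 0.07), the Arp2/3 subunits Arpc5 (-0.23), Arpc3 (-0.35) and Arpc1b (-0.19), and Cfl1, Lcp1, Myo1f and Vim (between -0.31 and -0.17). With scaling by total counts, which moved the median of all genes by 0.10, 3 were higher and 6 lower, and Arpc3, Arpc1b, Cfl1 and Lcp1 were no longer called. These 4 calls were lost in 7, 8, 4 and 4 of 20 alternatives, the first 2 of them also with edgeR, and Cfl1 was -0.11 without SJ3 and Arpc1b -0.13 without SJ3. Hcls1, Fscn1, Fermt3 and Coro1a, which rose in both media, differed between the media by values from -0.08 to 0.05, and the 95% interval of the Fscn1 difference was -0.42 to 0.53.

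R788 alone lowered most of the genes it changed. Against NS, 6 of the 37 rose and 19 fell, where 26.6% of all genes tested (11.6% higher, 15.0% lower) and 44.6% of abundant genes (25.5% lower) were called. The median log2 fold change of the 37 was -0.19, against 0.00 for all genes tested. The split was 5 higher and 19 lower without SJ8, 6 and 18 without SJ7, 8 and 14 with upper-quartile scaling, and 9 and 15 with scaling by total counts.

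The filament building blocks were lowest in this group. Actb had 241028 and 227875 normalized counts with R788 against 377289 and 327021 in NS, and Tmsb4x had 158284 and 156748 against 219801 and 249096. Neither overlapped NS, and the log2 fold changes were -0.59 ± 0.07, adjusted p = 3.63e-16 and -0.57 ± 0.06, adjusted p = 3.50e-22. Actg1 fell as well (-0.47 ± 0.07). Pfn1 was 79019 and 59660 in the 2 R788 libraries and was not called (-0.29 ± 0.13, adjusted p = 0.0672): it was -0.11 without SJ8 and -0.51, adjusted p = 1.66e-19, without SJ7.

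Of 8 nucleation genes, 4 fell, and 0 rose with DESeq2, with edgeR or at an unadjusted p under 0.05. Arpc2 (-0.20 ± 0.05) and Arpc5 (-0.26 ± 0.04) fell in both R788 libraries alike. Arpc3 was 19895 and 14453 with R788 and 22006 and 23506 in NS (-0.41 ± 0.10), and the value without SJ8 was -0.20, adjusted p = 0.00232. Cttn, at 77.3 and 55.9 against 134 and 111, was called (-0.88 ± 0.35, adjusted p = 0.0411) but lost in 15 of 20 alternatives, among them without SJ8 (-0.67, adjusted p = 0.237). Hcls1, the gene of this role that TCM raised most, was 0.09 ± 0.06 with R788, adjusted p = 0.296. Of the turnover genes Gsn (-0.42 ± 0.04) and Cfl1 (-0.28 ± 0.06) fell in both libraries, Capg was called at -0.14 ± 0.06, lost in 15 of 20 alternatives (-0.08 without SJ2), and Coro1a was 0.00 ± 0.05.

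Bundlers divided. Lcp1 fell from 105329 and 102317 in NS to 74281 and 72884 with R788 (-0.50 ± 0.04), and Flna was called at -0.14 ± 0.06, a call lost in 12 of 20 alternatives (-0.10 without SJ7, -0.11 without SJ1). Lsp1 rose from 16276 and 16830 to 21512 and 20062 (0.33 ± 0.07, adjusted p = 2.33e-05). Fscn1 was 93.6 and 88.6 against 53.5 and 59.7 (0.69 ± 0.28, adjusted p = 0.0459), a call lost without SJ7 or SJ8 and in 14 of 20 alternatives in all. The mature dendritic cell markers summed to between 904 and 934 with R788, above NS. Only Cd83 was higher in both R788 libraries (828 and 816 against 495 and 554 in NS). Batf3 (at most 87.8 against 120.2 and 161), Ccl22, Ccr7 and Flt3 were lower, and Zbtb46 overlapped. The part of these markers in the Fscn1 value was not tested.

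The ring gene Sorbs3 had the largest rise with R788. It had 444 and 433 normalized counts, while no library of another group had more than 143. Against 84.5 and 45.5 in NS this was 6.74-fold (2.75 ± 0.39, adjusted p = 5.02e-11), called under the 20 alternatives. Vinexin is also found in fibroblasts. The 8 fibroblast or stromal markers summed to between 3731 and 4032 with R788 and between 1916 and 2275 in NS. They summed to 4878 and 4904 in NBT3L TCM + R788, where Sorbs3 was 143 and 112. With R788 Col1a1 (1186 and 1527 against 606 and 549 in NS), Col1a2, Col3a1 and Acta2 were higher. Pdgfrb (72.7 and 81.4 against 159 and 117) and Lum were lower, and Dcn and Pdgfra overlapped. The part of these markers in the rise of Sorbs3 was not tested. Fermt3 (0.23 ± 0.05) and Pxn (0.18 ± 0.07, lost in 11 of 20 alternatives, 0.08 without SJ7) rose, Zyx fell (-0.20 ± 0.07; lost in 6 of 20 alternatives, -0.11 without SJ8, -0.18 without SJ2), and Vcl was -0.27 ± 0.11, adjusted p = 0.0535.

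The 2 cup myosins moved in opposite directions. Myo1e (chr9:70207350-70399766) had 2635 and 2314 normalized counts with R788 and 8190 and 7982 in NS. The R788 libraries were far below each library of the other groups, at 0.306 of the NS level (-1.71 ± 0.08, adjusted p = 6.15e-108). Myo1f had 41401 and 41783 against 35384 and 34384 and rose (0.25 ± 0.04, adjusted p = 6.74e-09). As both are read in the same library, the ratio of Myo1e to Myo1f per kb does not depend on scaling. It was 0.199 and 0.200 in NS and 0.0548 and 0.0477 with R788. Among the GTPases and exchange factors, Cdc42 (-0.21 ± 0.05), Dock8 (-0.42 ± 0.07) and Elmo1 (-0.19 ± 0.07, lost in 12 of 20 alternatives, -0.12 without SJ7) fell. No gene of this role rose with DESeq2 or edgeR, and 1 did at an unadjusted p under 0.05. Rac1 was -0.06 ± 0.06 and Dock2 0.01 ± 0.07.

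Intermediate filament genes fell with R788 too. Vim was 141702 and 153732 against 193393 and 191976 (-0.38 ± 0.05, adjusted p = 8.96e-13). Nes was 94.5 and 148 against 1577 and 1470, far lower in both libraries (-3.64 ± 0.29, adjusted p = 3.24e-33). The Nes value was -4.01 without SJ8. Of the endothelial markers, Kdr was 646 and 962 with R788 against 1348 and 1405 in NS. Pecam1 was 57.3 and 17.6 against 41.3 and 37.9. The part of these markers in the fall of Nes was not tested.

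**Figure D3:**
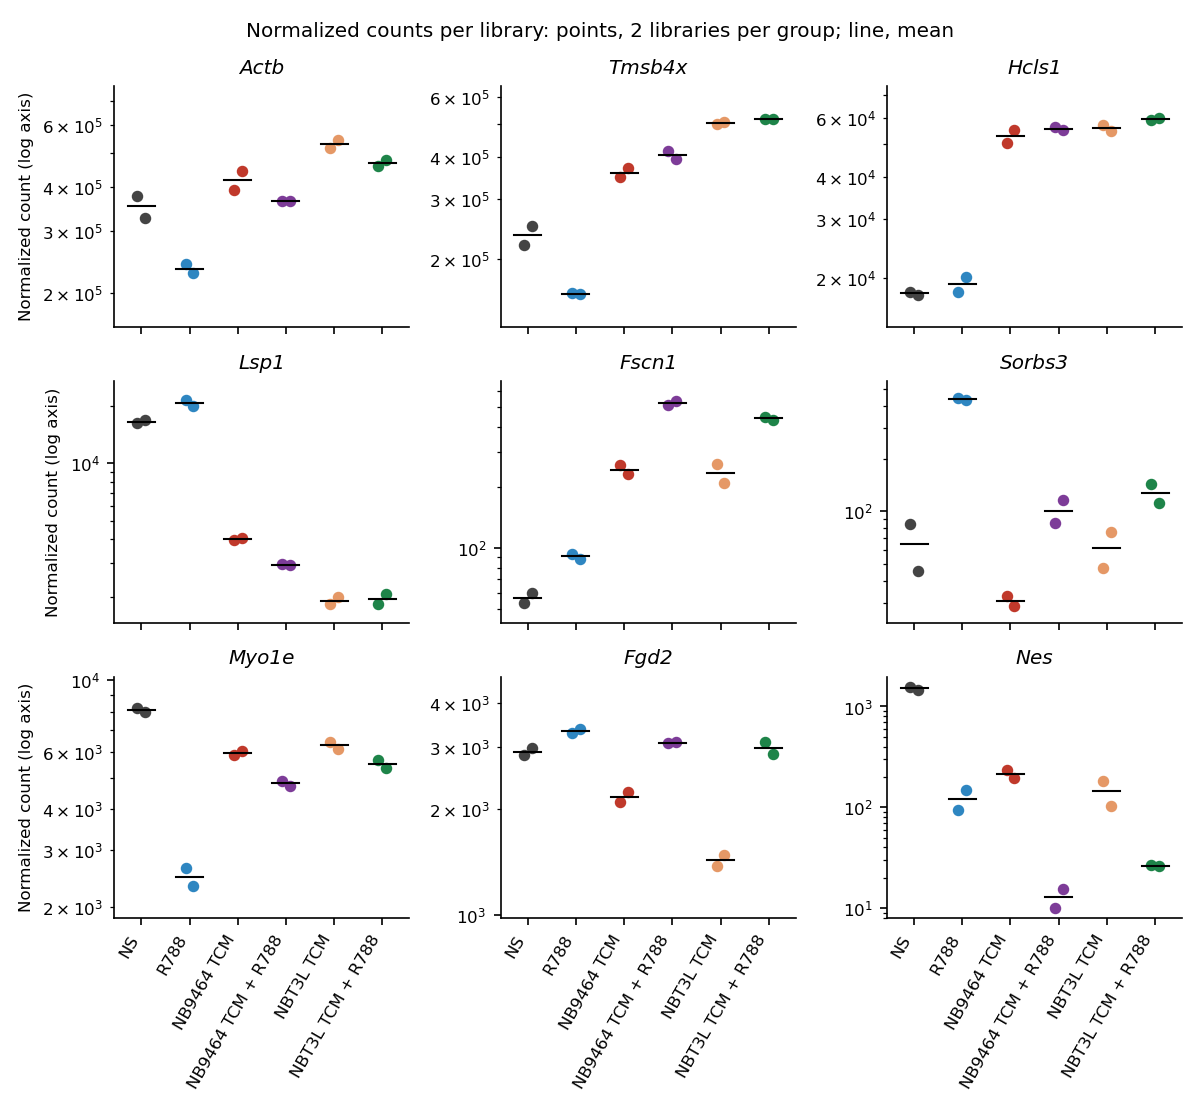
Normalized counts (log axis) of the 9 genes given library by library, in the 6 groups, with 2 points per group and a line at their mean. Sorbs3 is highest and Myo1e lowest with R788 alone, Hcls1 and Fscn1 are high and Lsp1 low in the 4 groups with TCM, and Nes falls in steps to 9.95 and 15.6 in NB9464 TCM + R788.

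R788 was also given to macrophages incubated with each TCM, which asks what it changes in macrophages exposed to tumor factors. In NB9464 TCM 6 rose and 9 fell, where 14.5% of all genes tested (5.79% higher, 8.70% lower) and 26.1% of abundant genes were called. In NBT3L TCM 5 rose and 8 fell, where 12.6% of all genes (5.33% higher, 7.24% lower) and 22.7% of abundant genes were called. For the latter, edgeR and scaling by total counts each gave 5 and 5. A fit of only the 4 libraries compared called 22 in NBT3L TCM, and leaving out SJ6 or SJ11 gave 8. The median log2 fold changes of the 37 were 0.01 and 0.02, and both medians of all genes tested were 0.00 to 2 decimals.

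Nes fell further in both media. From 234 and 193 in NB9464 TCM it went to 9.95 and 15.6 with R788 added, and from 183 and 104 in NBT3L TCM to 26.5 and 26.1. The lowest was 10 raw counts in SJ9, and the groups did not overlap (-4.08 ± 0.41, adjusted p = 4.26e-21; -2.44 ± 0.36, adjusted p = 4.17e-10). Vim fell again as well, to 68834 and 66681 in NB9464 TCM + R788 and 94265 and 93332 in NBT3L TCM + R788 (-0.59 ± 0.05 and -0.43 ± 0.05), its lowest values in the 6 groups being the former. With R788 the endothelial markers summed to between 879 and 940 in NB9464 TCM (693 and 734 without it). In NBT3L TCM they summed to between 829 and 856 (901 to 955 without it). Their members went both ways. With R788 Kdr was lower in NB9464 TCM (41.8 and 31.1 against 109 and 104) and in NBT3L TCM (119 and 54.3 against 425 and 423). Pecam1 was higher in NB9464 TCM (872 and 844 against 545 and 580) and in NBT3L TCM (685 and 744 against 453 and 419). The part of these markers in the fall of Nes and Vim was not tested.

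Fscn1 and Fgd2 were the genes that R788 raised most in NBT3L TCM among those called. The mature dendritic cell markers summed to between 374 and 582 in the 2 groups with both, and their part was not tested. Fscn1 had 510.3 and 535 normalized counts in NB9464 TCM + R788 and 449 and 430.1 in NBT3L TCM + R788, above each group without R788 (1.09 ± 0.24, adjusted p = 6.23e-05; 0.90 ± 0.24, adjusted p = 0.00218, the second lost without SJ6 or SJ11). Fgd2 had 3077 and 3088 in NB9464 TCM + R788, against 2095 and 2229 without R788, and 3093 and 2865 in NBT3L TCM + R788, against 1376 and 1481 without it. With R788 the TCM groups thus had Fgd2 values around those of NS, 2839 and 2966 (0.51 ± 0.09, adjusted p = 1.56e-07; 1.06 ± 0.09, adjusted p = 7.00e-30).

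Sorbs3 had 85.5 and 116 in NB9464 TCM + R788 and 143 and 112 in NBT3L TCM + R788, against 32.5 and 28.8 and, for the other medium, 47.0 and 75.7 without the inhibitor. The rise passed in NB9464 TCM (1.71 ± 0.42, adjusted p = 7.00e-04) and not in NBT3L TCM (1.05 ± 0.41, adjusted p = 0.0603). Lsp1 fell in NB9464 TCM, to 2952 and 2912 (-0.45 ± 0.07, adjusted p = 2.87e-08), and was 1832 and 2066 in NBT3L TCM + R788 (0.03 ± 0.08, adjusted p = 0.870). Hcls1 was 56166 and 55124 in NB9464 TCM + R788 and 59220 and 59656 in NBT3L TCM + R788, and its changes with R788 did not pass (0.08 ± 0.06 and 0.09 ± 0.06, 95% intervals -0.04 to 0.19 and -0.03 to 0.21).

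For the actin genes, the drop with R788 in TCM was small. Actb had 365864 and 364763 in NB9464 TCM + R788 and 458312 and 475740 in NBT3L TCM + R788 (-0.19 ± 0.07, adjusted p = 0.0303; -0.18 ± 0.07, adjusted p = 0.0479). Both calls were near the threshold: the first was lost without SJ4 (-0.10) and in 6 of 20 alternatives, the second in 13 of 20. Actg1 fell in both (-0.27 ± 0.07 and -0.23 ± 0.07, the second lost without SJ5, SJ6 or SJ11), and Tmsb4x, at 415896 and 395428 in NB9464 TCM + R788 and 516212 and 518514 in NBT3L TCM + R788, rose in the former (0.18 ± 0.06, adjusted p = 0.0150; not without SJ3 or SJ9). Myo1e was 4892 and 4725 in NB9464 TCM + R788 and 5678 and 5353 in NBT3L TCM + R788, and its fall was called in NB9464 TCM (-0.31 ± 0.08) but not in NBT3L TCM (-0.19 ± 0.08, adjusted p = 0.0710). Of the 8 nucleation genes 0 were called in either medium with DESeq2 or edgeR, and 1 and 0 had an unadjusted p under 0.05. Gsn rose in NBT3L TCM (0.21 ± 0.05), the opposite of its fall with R788 alone.

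Across the 3 media, 10 genes were called in one direction in each: Fscn1, Pxn and Myo1f higher, and Actb, Actg1, Flna, Lcp1, Zyx, Vim and Nes lower. Over all genes tested, 5.46% met the same condition. The share of abundant genes, which were called more often in each medium, was not counted. Among the 10 genes, Myo1f varied least between media (0.25 ± 0.04, 0.28 ± 0.04 and 0.24 ± 0.04), and the other values included Lcp1 (-0.50 ± 0.04, -0.33 ± 0.04 and -0.31 ± 0.04). The calls of Fscn1, Flna, Pxn and Zyx without TCM, of Actb in NB9464 TCM and of Actb and Zyx in NBT3L TCM were each lost in at least 6 of 20 alternatives, and those of Actg1 and Fscn1 in NBT3L TCM in 3 and 2. A further 11 genes were called in none of the media: Pfn1, Was, Wipf1, Arpc1b, Hcls1, Coro1a, Vcl, Tln1, Rac1, Dock2 and Fgd3. The share of all genes tested that were called in none was not counted. Most genes tested were not called in any single medium, as calls reached 26.6% for R788 alone, 14.5% for NB9464 TCM and 12.6% for NBT3L TCM. Averaged over the 3 media, 7 of the 37 rose and 13 fell. Of all genes tested 29.6% were called (13.4% higher and 16.2% lower), and of abundant genes 47.6%. The values of the 37 ran from 1.84 ± 0.24 for Sorbs3 and 0.89 ± 0.15 for Fscn1 to -0.74 ± 0.04 for Myo1e and -3.39 ± 0.21 for Nes.

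**Figure D4:**
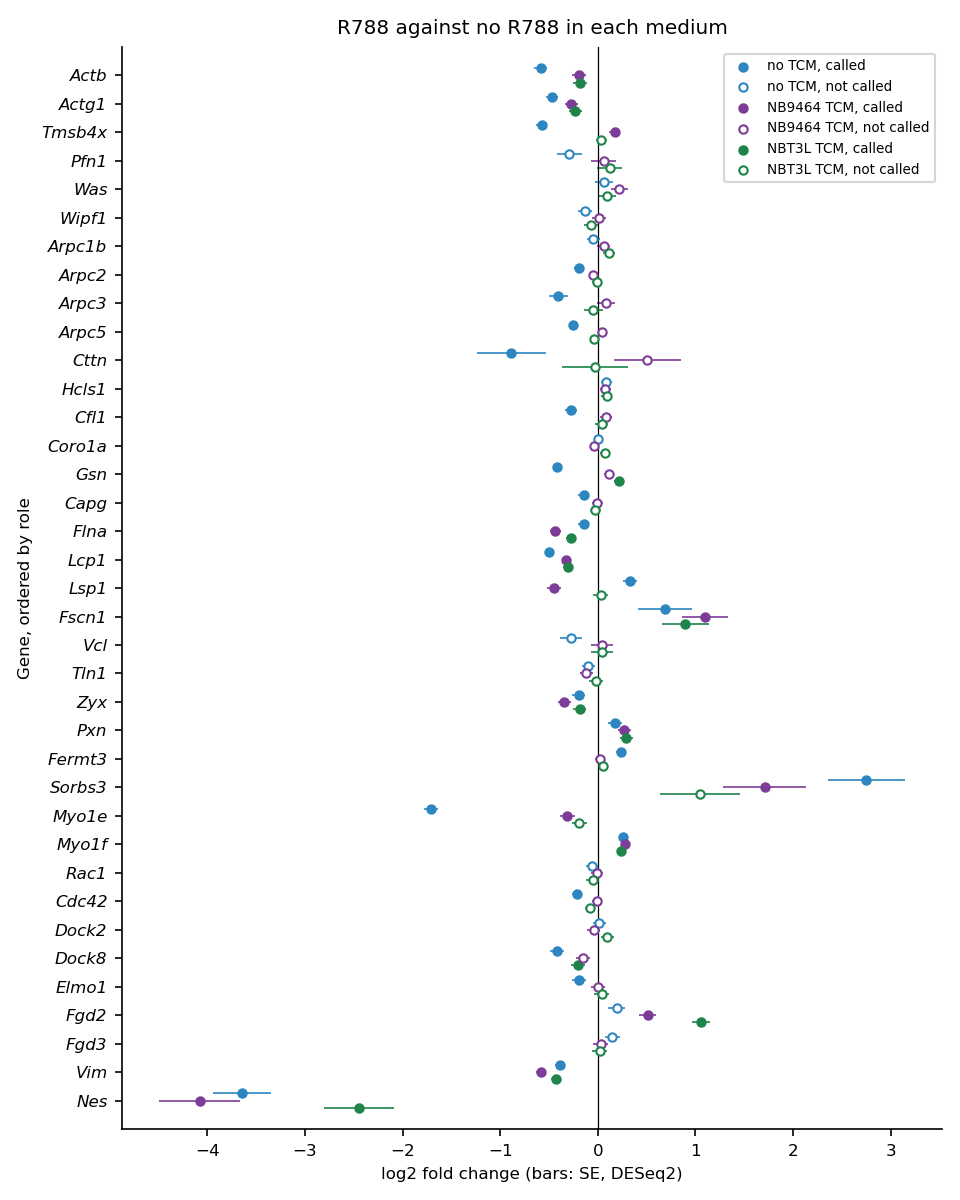
Log2 fold change with R788 for each of the 37 genes (vertical axis, ordered by role), without TCM (blue), in NB9464 TCM (purple) and in NBT3L TCM (green), with bars of 1 SE from DESeq2 and filled points where the adjusted p was under 0.05. Nes lies left of 0 in each medium, Myo1e is far left without TCM only (-1.71), and Sorbs3 lies to the right (2.75, 1.71 and 1.05).

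Whether the effect of R788 differed between media was tested with interaction contrasts. The effect in NB9464 TCM differed from that without TCM for 14 of the 37 genes (12.5% of all genes tested, 23.2% of abundant genes). The effect in NBT3L TCM differed from it for 11 (10.1% of all genes tested, 19.4% of abundant genes). For Myo1e the fall without TCM (-1.71) was smaller by 1.40 ± 0.11 in NB9464 TCM and by 1.52 ± 0.11 in NBT3L TCM, called under the 20 alternatives in each. The same held for Tmsb4x (0.75 ± 0.08 and 0.61 ± 0.08) and Gsn (0.53 ± 0.06 and 0.63 ± 0.06). For Actb the difference was 0.39 ± 0.10 and 0.40 ± 0.10, both lost without SJ8 (0.36 in each). The count was 9 in NB9464 TCM without SJ1, SJ4, SJ9 or SJ10 and 7 or fewer in NBT3L TCM without SJ2, SJ6, SJ11 or SJ12. Between the 2 TCMs the effect of R788 differed for Lsp1 (-0.48 ± 0.11, adjusted p = 0.00244) and Fgd2 (-0.55 ± 0.13, adjusted p = 0.00431). In that contrast 0.706% of all genes tested and 1.33% of abundant genes were called, and edgeR called neither Lsp1 nor Fgd2 (adjusted p = 0.0900 and 0.0834). These contrasts share the control libraries.

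Ratios of members within a library set the same shifts apart from scaling. Lcp1 exceeded Lsp1 per kb 3.52 and 3.31-fold in NS, 19.0 and 17.4-fold in NB9464 TCM, 45.1 and 41.2-fold in NBT3L TCM and 1.88 and 1.98-fold with R788. With R788 added to TCM the ratio was 19.6 and 20.1 in NB9464 TCM and 36.6 and 31.6 in NBT3L TCM. The groups thus stood in an order of R788, NS, NB9464 TCM, NB9464 TCM + R788, NBT3L TCM + R788 and NBT3L TCM with no overlap. With R788 the ratio was lower without TCM and in NBT3L TCM, and slightly higher in NB9464 TCM. The ratio of Vim to Actb was between 0.290 and 0.381 in the 4 libraries without TCM and between 0.103 and 0.142 in the 8 with TCM. That of the actins Actb and Actg1 stayed between 5.30 and 6.80 in all 12.

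**Figure D5:**
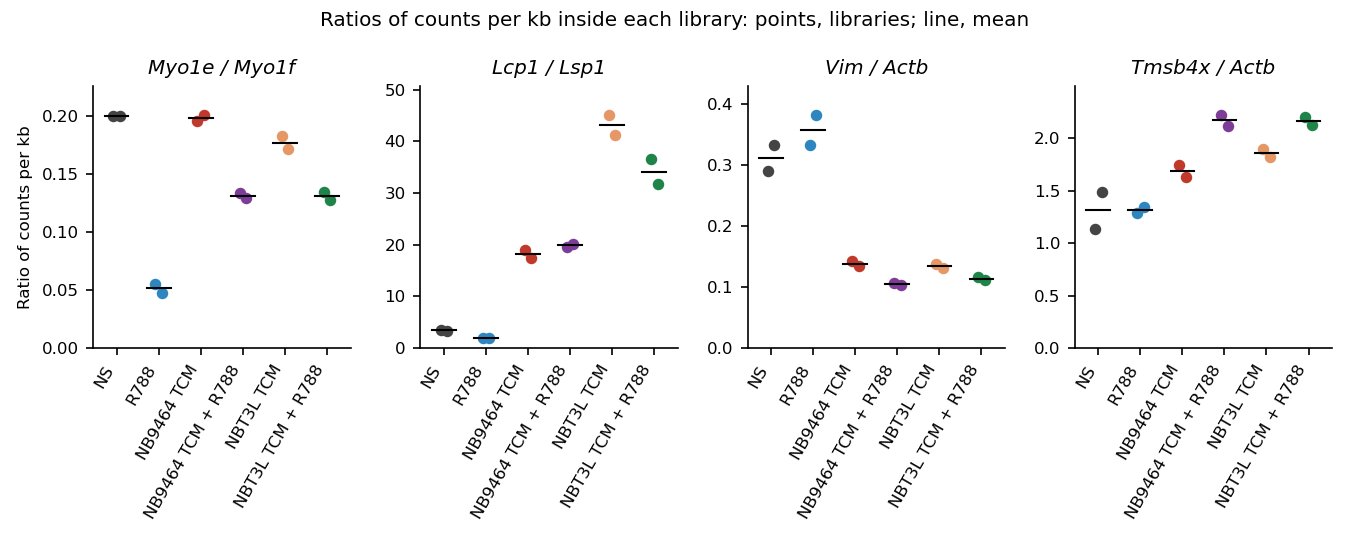
Ratio of counts per kb of exon of 2 genes in the same library, for 4 gene pairs, in the 6 groups, with 2 points per group and a line at their mean. Myo1e to Myo1f is lowest with R788 alone, Lcp1 to Lsp1 is highest in NBT3L TCM, and Vim to Actb separates the libraries with TCM from those without.

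A wider list of 162 actin, adhesion and filament genes, 158 of them tested, gives the surroundings of the 37. In NB9464 TCM against NS 52 rose and 48 fell, and in NBT3L TCM 52 rose and 42 fell, where 34.1% and 35.3% of all genes tested were called. Among those that averaged 100 normalized counts or more and moved one way in each library pair, the largest rise was that of Mmp14, the membrane metalloprotease with which podosomes digest matrix (3.48 ± 0.05 and 4.11 ± 0.05; mean normalized counts 2606 ± 13.6 in NS, 29057 ± 1286 with NB9464 TCM and 45071 ± 640.2 with NBT3L TCM, SD, n = 2). The largest fall under the same limits was that of the capping protein Eps8 (-2.06 ± 0.48 and -3.37 ± 0.49). Between the TCMs 13 were higher and 22 lower in NB9464 TCM (9.40% of all genes called), led by the adhesion protein Tns1 (1.46 ± 0.19) and by Mmp14 (-0.63 ± 0.05). With R788 alone 29 rose and 46 fell (26.6% of all genes called), led by the actin binder Cald1 (1.17 ± 0.17) and Eps8 (-1.82 ± 0.48). In each TCM 16 rose and 37 fell with R788, where 14.5% and 12.6% of all genes were called, with Tns1 the largest rise (1.01 ± 0.18 and 0.97 ± 0.19) and, in NB9464 TCM, Eps8 the largest fall (-1.75 ± 0.51). Of 20 bundling, tropomyosin and membrane linker genes, 10 fell and 3 rose with R788 alone, 8 and 1 with NB9464 TCM and 10 and 1 with NBT3L TCM. For those 3 comparisons 15.0%, 8.70% and 7.24% of all genes tested fell, and 25.5%, 15.2% and 13.3% of abundant genes. Of the 5 further Arp2/3 subunits, 2, 1 and 2 fell.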

How the data were processed

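The authors deposited 1 table of raw counts, whole numbers of reads for each Ensembl gene and library. Their methods name STAR for mapping to mm10 and Salmon for quantification. The submitters' processing notes list Picard 2.26, STAR 2.6.1d, SAMtools 1.9, Salmon 1.4.0 and MultiQC 1.11. The layout of the table is that of a counting program, so which program made the counts is unclear. The handling of strand and of reads with several map positions is not given in the sources used here. The labels give paired-end reads and 2 libraries per group, the methods single reads and triplicates.

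Symbols and positions came from GENCODE M21 (GRCm38). Every gene that reached 10 counts in 2 or more libraries entered the test, with DESeq2 1.42.0 (R 4.3.3), the tool of the study, in 1 fit of 6 group means, with a Wald test and Benjamini-Hochberg adjustment over all genes tested in each contrast. A gene was called at an adjusted p under 0.05. Errors beside log2 fold changes are standard errors, and normalized counts are counts over DESeq2 size factors. Counts are divided by exon length in the levels per kb and in the ratios of 2 genes. Median levels, limits on mean normalized counts, shares of counts and marker values are not divided by length.

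Alternatives were edgeR 4.0.16, other scalings, other count filters, counts divided by 2, a fit of only the libraries compared and leaving out each library, 20 for each gene and pairwise contrast. The fit was tested on simulated counts. Named by rule were the 37 genes and Syk, with values for each library for Actb and for genes called with an absolute log2 fold change of at least 1 in a comparison of 2 groups, and, of the wider list, the largest called rise and fall with a mean normalized count of 100 or more that moved one way in each pair of libraries. Other values by library were added after seeing the data. One gene that the rule names is not reported here. The genes and lists were chosen with earlier results of these data known.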

Additional observations from a re-analysis of the deposited data

Results flagged for a closer look

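For 17 of the 37 genes the effect of R788 on the log2 scale differed between media in at least 1 test of the difference itself (DESeq2, interaction contrasts in 1 fit of 12 libraries, adjusted p under 0.05). Of all genes tested, 12.5% were called for NB9464 TCM against no TCM, 10.1% for NBT3L TCM against no TCM and 0.706% between the TCMs. Of abundant genes, 23.2%, 19.4% and 1.33% were called. The share of all genes called in at least 1 of these contrasts was not counted. Each difference below is the effect in the first medium minus that in the second.

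For NB9464 TCM against no TCM the difference was positive for the filament genes Actb (0.394) and Tmsb4x (0.749), the Arp2/3 subunits Arpc3 (0.490) and Arpc5 (0.298), Cttn (1.39), Cfl1 (0.362), Gsn (0.530), Lcp1 (0.171), Myo1e (1.40) and Cdc42 (0.204). In these the effect without TCM was a fall, and in NB9464 TCM the values ran from -0.33 for Lcp1 to 0.51 for Cttn. It was negative for Flna (-0.290), Lsp1 (-0.779), Fermt3 (-0.214) and Vim (-0.202). For Cttn it rests on at most 207 normalized counts in a library and was lost in 13 of 20 alternatives, and the others lost were Lcp1 (14), Vim (11), Cdc42 (8), Fermt3 (6), Arpc3 (4) and Actb (1).

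For NBT3L TCM against no TCM the difference was positive for Actb (0.403), Tmsb4x (0.611), Arpc2 (0.187), Arpc5 (0.219), Cfl1 (0.314), Gsn (0.632), Lcp1 (0.188), Myo1e (1.52) and the exchange factor Fgd2 (0.864), and negative for Lsp1 (-0.297) and Sorbs3 (-1.70). Arpc2 was lost in 13 of 20 alternatives, Lcp1 in 11, Lsp1 in 10, Sorbs3 in 5, Arpc5 in 3, Cfl1 in 2 and Actb in 1.

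For NB9464 TCM against NBT3L TCM the difference was -0.482 for Lsp1 and -0.547 for Fgd2. Lsp1 fell with R788 in NB9464 TCM, and its value in NBT3L TCM was 0.03. Fgd2 rose in both. The first was lost in 3 alternatives and the second in 6.

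Groups of 2 libraries are too small for the search for a single sample far from the rest.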

How the results depend on the processing

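No paired analysis was possible because the labels number the libraries from 1 to 12 and no groups share a number. With a minimum change of 2-fold, the genes called numbered 5 in NB9464 TCM and 6 in NBT3L TCM against NS, 1 between the media, 3 with R788 alone, 3 with R788 in NB9464 TCM, 2 in NBT3L TCM, 2 averaged over media, 2 and 2 in the interactions with NB9464 TCM and NBT3L TCM, and 0 for the effect of R788 between the TCMs. The shares of all genes tested with such a change are given above for each TCM against NS. Between the media the share was 1.11%. It was 4.95% with R788 alone, 2.11% with R788 in NB9464 TCM, 1.93% in NBT3L TCM and 3.53% averaged over media. In the interactions it was 2.35% and 1.77%, and for the effect of R788 between the TCMs 0.135%. For that effect, edgeR without the minimum called 0 of the 37 genes (5 at an unadjusted p under 0.05), against 2 with DESeq2. Fitting only the libraries compared gave 22 for R788 in NBT3L TCM and 9 for the interaction with NB9464 TCM.

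The median log2 fold change of the 37 genes moved to 0.019 (NB9464 TCM against NS), -0.15 (R788), -0.032 (averaged over media) and 0.13 (interaction with NBT3L TCM) with upper-quartile scaling. Between the media it was -0.080 with edgeR, TMM or upper-quartile scaling and -0.078 with only the libraries compared. With scaling by total counts, chosen after seeing the data, it was -0.14 and -0.19 for NB9464 TCM and NBT3L TCM against NS, 0.010 between them, -0.12 with R788, -0.034 averaged over media, 0.065 and 0.11 in the interactions and -0.053 between the effects of R788. Under that scaling Arpc2 (-0.20) and Dock8 (-0.19) turned to a called fall in NBT3L TCM. No other alternative tried turned the direction of a call.

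Leaving out 1 library at a time gave these ranges of genes called and of the median: 24 to 31 and -0.037 to 0.017 for NB9464 TCM against NS, 24 to 29 and 0.034 to 0.15 for NBT3L TCM against NS, 9 to 15 and -0.12 to -0.090 between the media, 19 to 24 and -0.20 to -0.14 with R788, 13 to 17 and -0.0088 to 0.024 with R788 in NB9464 TCM, 8 to 15 and -0.017 to 0.046 with R788 in NBT3L TCM, 18 to 23 and -0.065 to -0.047 averaged over media, 9 to 17 and 0.12 to 0.18 for the interaction with NB9464 TCM, 6 to 15 and 0.13 to 0.17 for that with NBT3L TCM, and 1 to 2 and -0.049 to 0.0024 for the effect of R788 between the TCMs. Of the genes called, 20 of 29 in NB9464 TCM, 22 of 26 in NBT3L TCM, 9 of 13 between the media, 18 of 25 with R788, 13 of 15 with R788 in NB9464 TCM and 8 of 13 with R788 in NBT3L TCM were called under every alternative tried except the 2-fold minimum. With 2 libraries per group, a group left with 1 is assumed to vary like the others. Rare transcripts (Fscn1, Nes, Sorbs3, Cttn) had the widest errors.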
